A study of Mus musculus with 20 samples.

Results

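Transcripts of 6 transcription factor genes grouped as myeloid, Cebpa, Cebpb, Cebpd, Spi1, Gfi1 and Egr2, were followed across sorted mouse haematopoietic populations. Each gene was read by the probe set annotated to it alone that had the highest mean log2 level over the 20 arrays, and all 6 genes had such a probe set, of 18193 genes that did. Cells of C57BL/6 mice had been sorted by surface markers, and RNA from 3000 cells per sample was amplified in 2 cycles and hybridised to Affymetrix Mouse Genome 430 2.0 arrays. There were 10 populations with 2 biological replicates each. The myeloid populations were Neutrophil, sorted on Gr-1, and Monocyte, sorted on Mac-1 and labelled monocytes/macrophages. The lymphoid populations were NK, sorted on NK1.1, B, sorted on B220, NKT, sorted on both CD3ε and NK1.1, and the T cells CD4T and CD8T. The others were Erythroblast (Ter119-positive), KSL, the usual name of a fraction rich in stem and early progenitor cells, and LinNeg, the cells without lineage markers. No treatment or mutation is given for any group. The sources used here give no tissue of origin, no age of the mice and no gates beyond those markers, nor do they say whether the replicates came from separate animals, so the p-values below measure the spread between these arrays.

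C/EBP proteins bind DNA as dimers through a basic region and a leucine zipper. C/EBPα, from Cebpa, is needed to form granulocyte and monocyte progenitors, C/EBPβ, from Cebpb, takes part in emergency granulopoiesis and macrophage activation, and C/EBPδ, from Cebpd, is an inflammation-induced relative. Spi1 encodes PU.1, an ETS factor needed for macrophages, granulocytes and B cells, which works with C/EBP proteins at many myeloid promoters. Gfi1 encodes a zinc finger repressor needed for neutrophils that also acts in stem cells and T cells. Egr2 encodes a zinc finger activator of the immediate-early kind, known in macrophages, in T cells made unresponsive and in the development of NKT cells.

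The start regions of Cebpb, Cebpa and Egr2 are shown because their transcripts followed different patterns over the populations. They run from 250 bases before to 50 bases after a RefSeq start site (GRCm38.p6), written 5′ to 3′ on the gene's strand. Windows were listed for 4 of the 6 genes; Spi1 and Cebpd had none. For Egr2 the middle of 5 listed starts was taken. The letters searched, on both strands, were TTGCNNAA for C/EBP, GAGGAA for PU.1, GCGNGGGCG for Egr, AAATC for Gfi1, TGACG for CREB, TATAAA for a TATA box, and the CArG box of SRF. Capitals mark matches, and no 2 matches overlap in these windows.
Cebpb, chr2:167688665-167688964, plus strand: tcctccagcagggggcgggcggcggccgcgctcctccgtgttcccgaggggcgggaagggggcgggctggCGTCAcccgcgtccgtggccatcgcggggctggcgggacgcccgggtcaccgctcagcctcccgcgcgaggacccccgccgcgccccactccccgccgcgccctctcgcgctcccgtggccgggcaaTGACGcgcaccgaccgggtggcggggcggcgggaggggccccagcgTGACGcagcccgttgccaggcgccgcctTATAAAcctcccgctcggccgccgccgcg
Cebpa, chr7:35119043-35119342, plus strand: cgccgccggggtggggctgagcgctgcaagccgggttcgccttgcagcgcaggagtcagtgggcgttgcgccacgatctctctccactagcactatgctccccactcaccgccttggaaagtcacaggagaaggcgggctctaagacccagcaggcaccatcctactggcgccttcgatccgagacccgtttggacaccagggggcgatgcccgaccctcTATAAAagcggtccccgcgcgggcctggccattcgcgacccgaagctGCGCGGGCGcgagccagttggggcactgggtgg
Egr2, chr10:67537619-67537918, plus strand: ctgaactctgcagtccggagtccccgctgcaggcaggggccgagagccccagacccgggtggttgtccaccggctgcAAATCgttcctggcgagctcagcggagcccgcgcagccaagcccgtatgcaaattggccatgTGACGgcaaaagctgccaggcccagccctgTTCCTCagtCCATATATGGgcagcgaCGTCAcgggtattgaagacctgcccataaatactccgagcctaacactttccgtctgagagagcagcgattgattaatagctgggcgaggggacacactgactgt
The Cebpb window held 3 CREB matches and 1 TATA match, and 80.7% of its bases were G or C, against a median of 52.7% over 32851 windows. The Cebpa window held 1 TATA and 1 Egr match. Its TATA match began at position -30 relative to the listed start, and that of Cebpb at position 22, downstream of the start. The Egr2 window held 1 CArG box, 2 CREB matches, 1 PU.1 match and 1 Gfi1 match. The Gfi1 window (the outer of 2 listed, not shown) held 1 C/EBP match. Over all windows a match was found in 20.8% for CREB, 13.6% for TATA, 5.55% for Egr, 1.63% for the CArG box, 28.3% for PU.1, 35.9% for Gfi1 and 10.8% for C/EBP. These matches are letters in a window and were not measured as binding.

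The deposited values are probe set intensities on a linear scale, and their mean without the lowest and highest 2% was the same in each array. Array medians ran from 20.3 to 26.8, and replicates of one population correlated across genes with Pearson r from 0.953 to 0.972. Marker lists were summed per array to check the labels, and the 2 sums of a population are given in replicate order. The lists of neutrophil, B, T, NK, erythroid and stem and progenitor genes were each highest in the population of that name (for the stem list, KSL). Neutrophil markers summed to 52659 and 42302 in Neutrophil and were also high in Monocyte, at 39646 and 32449. Monocyte and macrophage markers were highest in NK, at sums of 18832 and 16590.1, above the 5944 and 10870.0 of Monocyte. All 7 genes of the list were at or above the array median in both arrays of NK, as also in those of Monocyte and NKT. NK markers themselves summed to 8784 and 8943 in NK, against 1905 and 1445 in NKT and 43.3 and 73.9 in Monocyte. In bulk samples such as these, fewer cells of a type and less RNA per cell cannot be told apart.

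**Figure D1:**
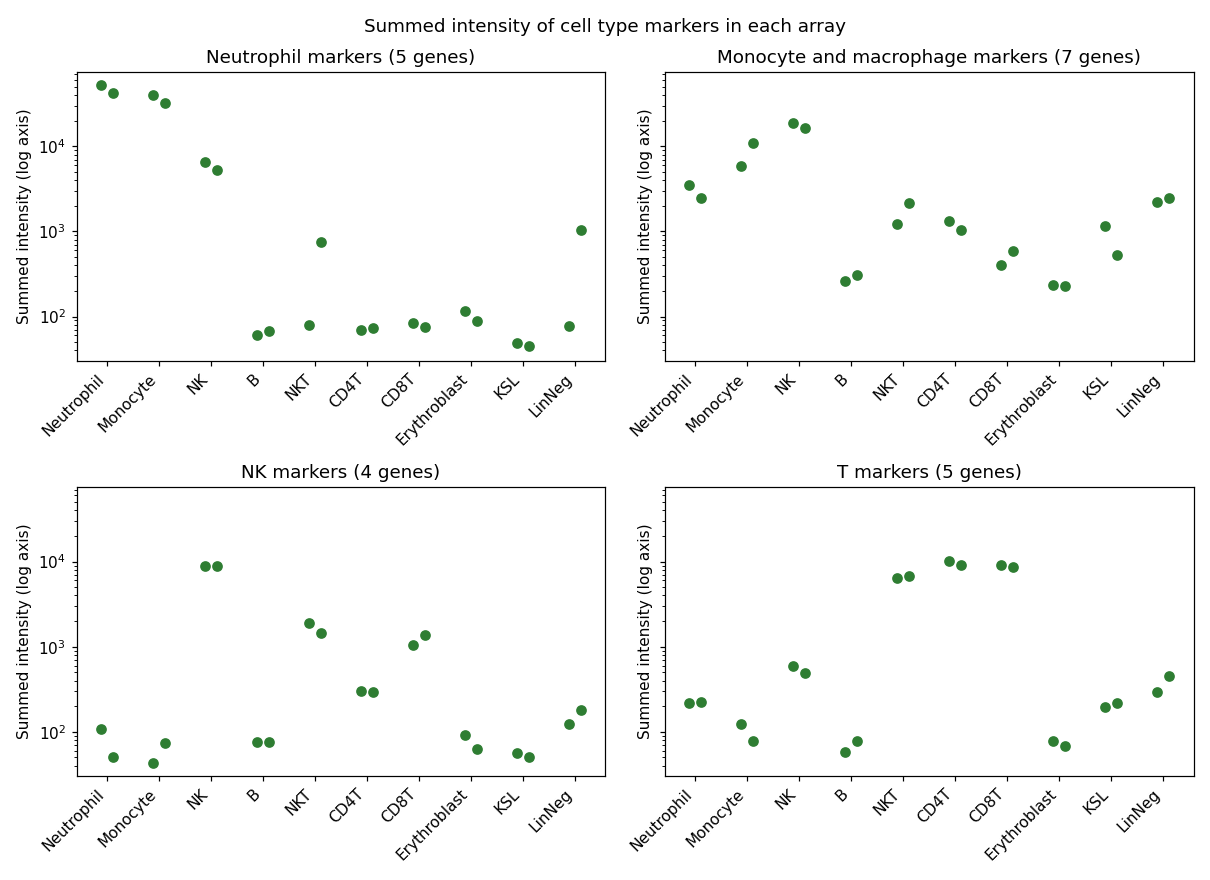
Summed intensity (log axis) of neutrophil, monocyte and macrophage, NK and T cell marker genes in each of the 20 arrays; points are the 2 arrays of a population. Monocyte and macrophage markers reach 18832 in NK and at most 10870.0 in Monocyte, and neutrophil markers reach 39646 in Monocyte.

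Transcripts of the C/EBP genes ranged less for Cebpa than for Cebpb and Cebpd. The ranges between population means were 3.47, 5.57 and 8.11 on the log2 scale, against a median of 2.13 over the genes tested. Cebpa had intensities of 87.0 and 47.0 in Neutrophil, 62.4 and 115 in Monocyte, 73.2 and 73.7 in NK, 1.06 and 3.06 in B, 29.9 and 28.4 in NKT, 24.1 and 30.7 in CD4T, 11.4 and 5.86 in CD8T, 9.39 and 10.9 in Erythroblast, 100.4 and 81.4 in KSL, and 84.2 and 73.1 in LinNeg. The gene was thus never bright, above 100 in 2 of 20 arrays, though above the array median in 13. It was highest in KSL, Monocyte, LinNeg, NK and Neutrophil, where each overlaps its neighbours in the order of means. No neighbours among them passed the test, with log2 differences from 0.08 to 0.18. NKT and CD4T came next and overlapped each other, and B lay lowest, with both arrays under the pseudocount of 6.75 that is added before taking logs.

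Cebpb, the gene of C/EBPβ, had intensities of 1304 and 1621 in Neutrophil, 499 and 961 in Monocyte, 1062 and 1597 in NK, 32.1 and 35.3 in B, 52.6 and 73.7 in NKT, 43.0 and 70.8 in CD4T, 48.9 and 28.2 in CD8T, 25.8 and 22.4 in Erythroblast, 66.2 and 22.0 in KSL, and 55.3 and 47.9 in LinNeg. Its populations fell into 2 tiers that do not overlap, the lowest array of the upper tier at 499 and the highest of the lower tier at 73.7. Among the 9 neighbouring pairs in its order, the step between Monocyte and NKT was the only one that passed, with a log2 difference of 3.34 ± 0.39 (SE, limma adjusted p 1.34e-06). A second, dimmer Cebpb probe set had its highest population means in Neutrophil too, at 137, and its population means correlated with the first at r = 0.954 over the 10 populations.

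Cebpd, the gene of C/EBPδ, had intensities of 3826 and 3385 in Neutrophil, 2587 and 1947 in Monocyte, 314 and 294 in NK, 14.5 and 1.32 in B, 19.1 and 17.0 in NKT, 10.5 and 8.89 in CD4T, 7.01 and 10.7 in CD8T, 11.01 and 29.5 in Erythroblast, 60.6 and 37.9 in KSL, and 143 and 147 in LinNeg. Its range was the widest of the 6 genes, 8.11 on the log2 scale between population means, against a median of 2.13 over the genes tested. Cebpd was graded, with Neutrophil and Monocyte on top, then NK, LinNeg and KSL in that order, and the step below each of Monocyte, NK, LinNeg and KSL passed the test (limma adjusted p 1.73e-05, 0.044, 0.024 and 0.020). Erythroblast, NKT, CD4T, CD8T and B lay at the bottom, and no neighbours among them passed. A second Cebpd probe set was dim everywhere, at most 94.1 in any array, and was also highest in Neutrophil, with a mean of 92.3, and lowest in B, with 6.20. Below NK it did not show the order of the first, with means of 28.3 in NKT, 27.0 in LinNeg, 26.0 in Erythroblast and 15.9 in KSL.

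**Figure D2:**
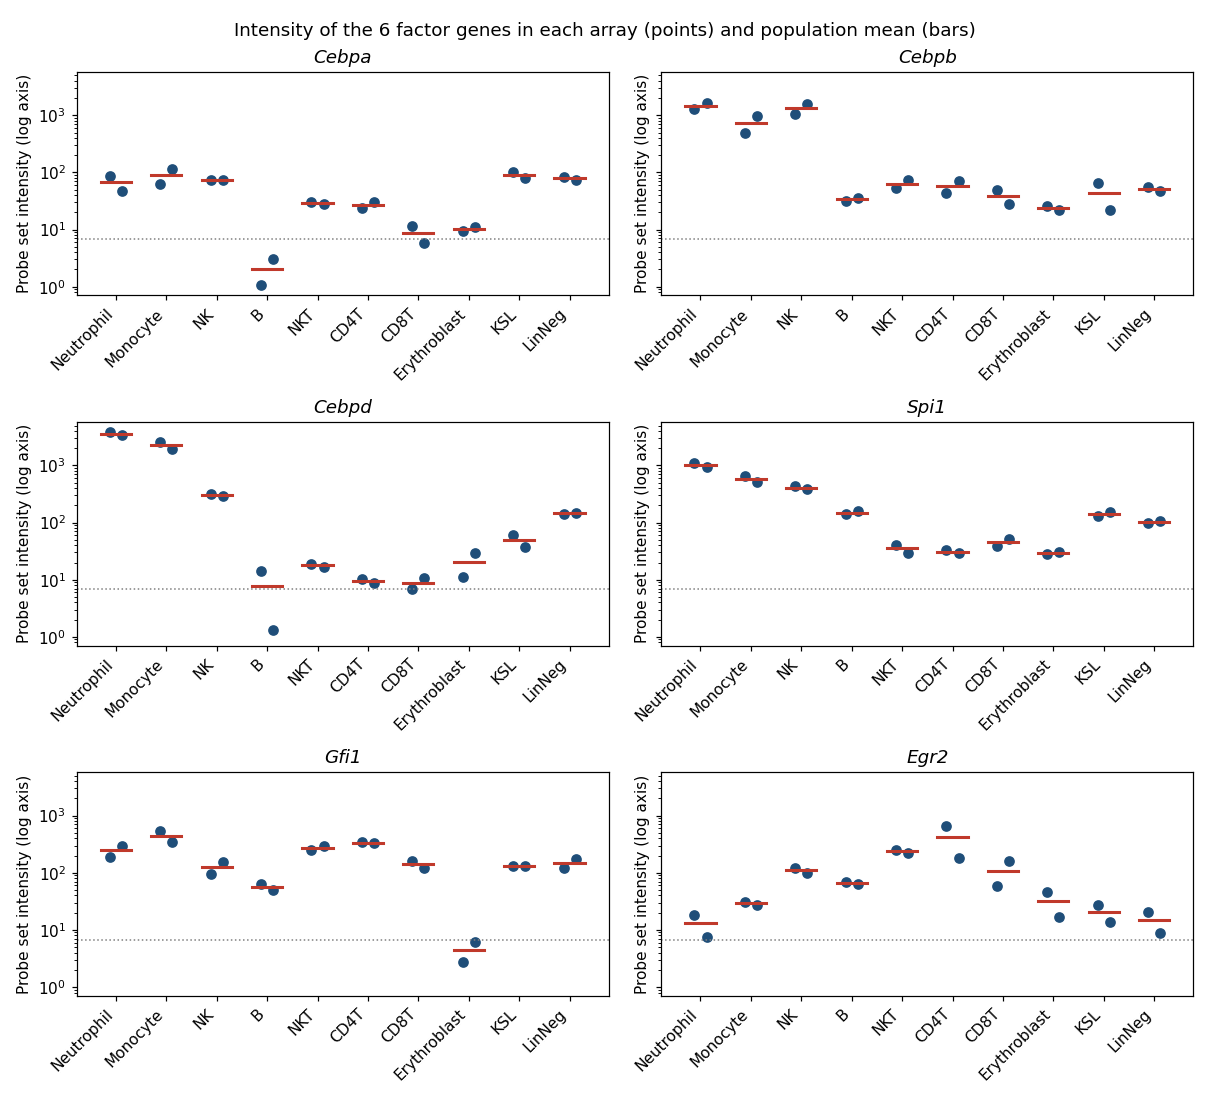
Probe set intensity (log axis) of the 6 genes in each of the 20 arrays (points) with population means (bars); the dotted line is the pseudocount of 6.75. Cebpb and Cebpd are at 294 or more in both arrays of Neutrophil, Monocyte and NK, while Egr2 is highest in CD4T and NKT and Gfi1 is lowest in Erythroblast.

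Spi1, the gene of PU.1, had intensities of 1117 and 934 in Neutrophil, 646 and 509 in Monocyte, 434 and 389 in NK, 139 and 157 in B, 41.3 and 29.2 in NKT, 32.9 and 29.3 in CD4T, 39.1 and 50.8 in CD8T, 28.4 and 30.4 in Erythroblast, 130.2 and 156 in KSL, and 97.6 and 106 in LinNeg. Neutrophil, Monocyte and NK were high, B, KSL and LinNeg intermediate, and the T cell populations and Erythroblast low. Within the high populations Spi1 was called higher in Neutrophil than in NK (1.30 ± 0.23, limma adjusted p 0.00014). The step between NK and B (log2 difference 1.43 ± 0.23, limma adjusted p 0.00012) and that between LinNeg and CD8T (1.08 ± 0.23, adjusted p 0.0012) passed, and the other 7 neighbouring steps did not. Replicates of Spi1 were close, with a residual SD of 0.176 on the log2 scale, against a median of 0.340 over the genes tested.

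Gfi1 had intensities of 191 and 299 in Neutrophil, 537 and 351 in Monocyte, 95.9 and 155 in NK, 63.0 and 50.3 in B, 254 and 295 in NKT, 342 and 333 in CD4T, 163 and 122 in CD8T, 2.70 and 6.07 in Erythroblast, 129 and 133 in KSL, and 121 and 172 in LinNeg. The gene was not limited to myeloid cells: its CD4T arrays lay between those of Neutrophil and Monocyte, and its NKT arrays within the range of Neutrophil. None of the first 7 neighbouring steps in its order, from Monocyte down to NK, passed the test. The step between NK and B (log2 difference 1.03 ± 0.30, limma adjusted p 0.017) and that between B and Erythroblast (2.52 ± 0.30, adjusted p 4.99e-07) did.

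Egr2 had intensities of 18.5 and 7.56 in Neutrophil, 31.3 and 27.7 in Monocyte, 119.5 and 101 in NK, 68.4 and 64.7 in B, 247 and 226 in NKT, 647 and 184 in CD4T, 58.7 and 160.4 in CD8T, 46.5 and 16.7 in Erythroblast, 27.0 and 13.6 in KSL, and 20.7 and 8.99 in LinNeg. In these arrays Egr2 thus went against its grouping with myeloid factors, since every lymphoid array lay above every Neutrophil and Monocyte array. Neutrophil had the lowest mean by this probe set but was not separated from LinNeg (log2 difference 0.13, limma adjusted p 0.86). Its replicates were far apart in CD4T and in CD8T, and its residual SD of 0.645 on the log2 scale was the largest of the 6 genes. None of the 9 neighbouring steps passed, and 7 of them were under the size of 1. The second Egr2 probe set had 269 and 186 in CD4T, 197 and 153 in NKT, 1.45 and 15.4 in Neutrophil, and 1.21 and 1.73 in Erythroblast, its lowest population, and its population means correlated with those of the first at r = 0.942 over the 10 populations.

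**Figure D3:**
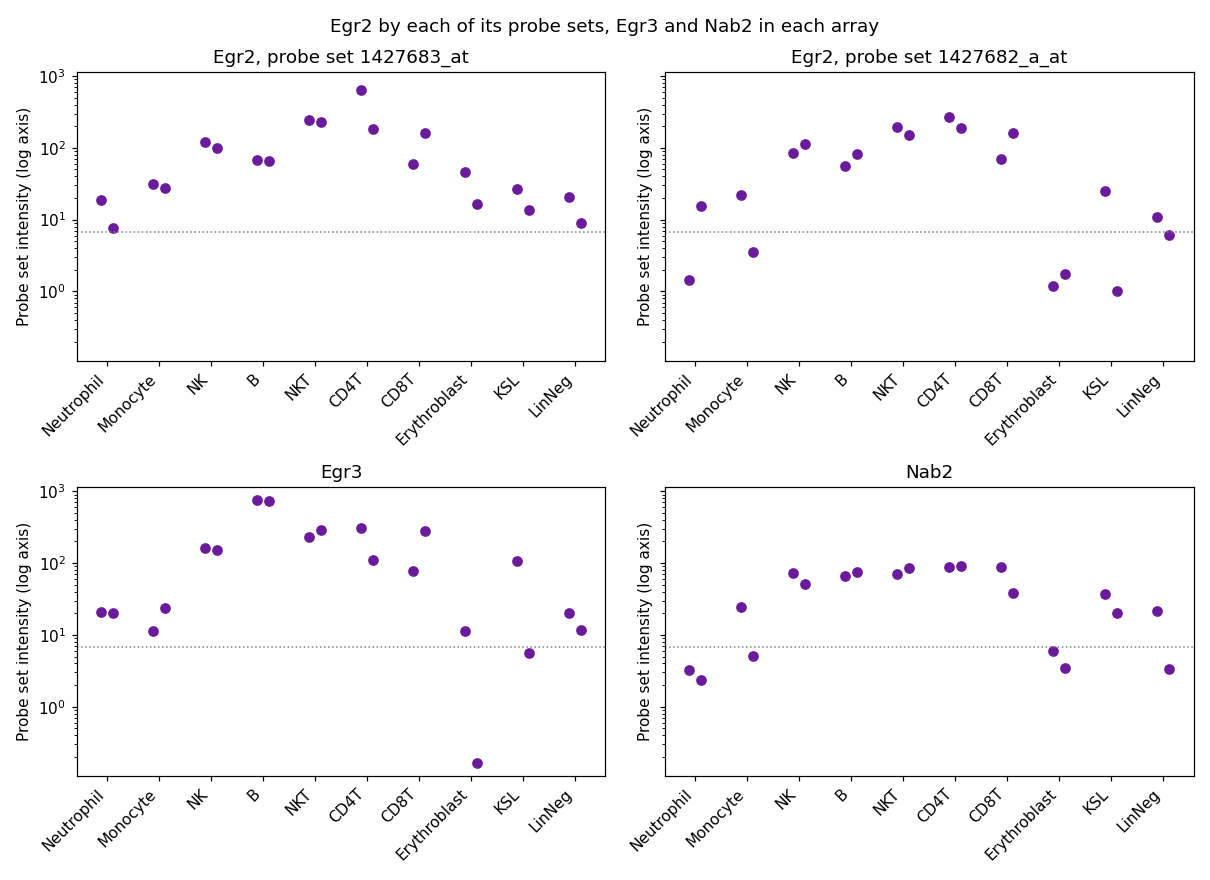
Intensity (log axis) in each of the 20 arrays of Egr2 by each of its probe sets, of its relative Egr3 and of the Egr co-repressor gene Nab2; the dotted line is the pseudocount of 6.75. All 4 panels are higher in the lymphoid populations than in Neutrophil, and Egr3 is highest in B, with a mean of 746.

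The limma F test found differences among populations for all 6 genes (adjusted p from 6.72e-13 for Cebpd and 9.69e-13 for Spi1 to 1.11e-07 for Cebpa and 2.38e-06 for Egr2), and for 76.5% of the 14044 genes tested. A gene was called in a comparison at an adjusted p under 0.05 with a log2 difference of at least 1, and all 6 genes passed the filter on dim genes. Between pairs of populations they were called in 23 pairs (Cebpb) to 34 pairs (Cebpd and Spi1) of 45, where 26.8% of all gene and pair combinations were called.

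Neutrophil and Monocyte together were set against the 5 lymphoid populations, each population weighing equally, to ask which of these factors are higher in the myeloid populations. Of the 6 genes, 5 were called higher in the myeloid populations, where 11.9% of the genes tested were, and Egr2 was called lower, where 17.4% were. Cebpd had an average of 2936 in the myeloid arrays and 69.6 in the lymphoid arrays, a log2 difference of 6.55 ± 0.23 (SE, limma adjusted p 2.12e-14). Spi1 averaged 802 in the myeloid and 134 in the lymphoid arrays (3.14 ± 0.14, adjusted p 4.03e-13), and the arrays of the 2 sides did not overlap for either gene. Cebpb averaged 1097 in the myeloid and 304 in the lymphoid arrays (3.34 ± 0.23, adjusted p 2.87e-10), and here the sides overlap because NK lies on the lymphoid side. With NK left out the difference of Cebpb was 4.27, that of Cebpd 7.39 and that of Spi1 3.70. With the second, dim probe sets the difference was 2.01 for Cebpb and 1.93 for Cebpd, and both kept their call.

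Cebpa was higher in the myeloid populations by 1.61 ± 0.22 (limma adjusted p 3.35e-06), with lymphoid arrays from 1.06 in B to 73.7 in NK and myeloid arrays from 47.0 to 115. Gfi1 averaged 345 in the myeloid and 187 in the lymphoid arrays, and its difference of 1.01 ± 0.17 stood at the edge of the size asked for. That call ended with NK left out (0.93), with the pseudocount at the 50th percentile (0.93) and on leaving out any of 6 single arrays (0.86 to 0.99), 1 each of B, CD8T, NK, NKT, Neutrophil and Monocyte. Egr2 averaged 21.3 in the myeloid and 188 in the lymphoid arrays (-2.52 ± 0.32, adjusted p 1.28e-06). Its highest myeloid array, 31.3 in Monocyte, lay below its lowest lymphoid array, 58.7 in CD8T.

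**Figure D4:**
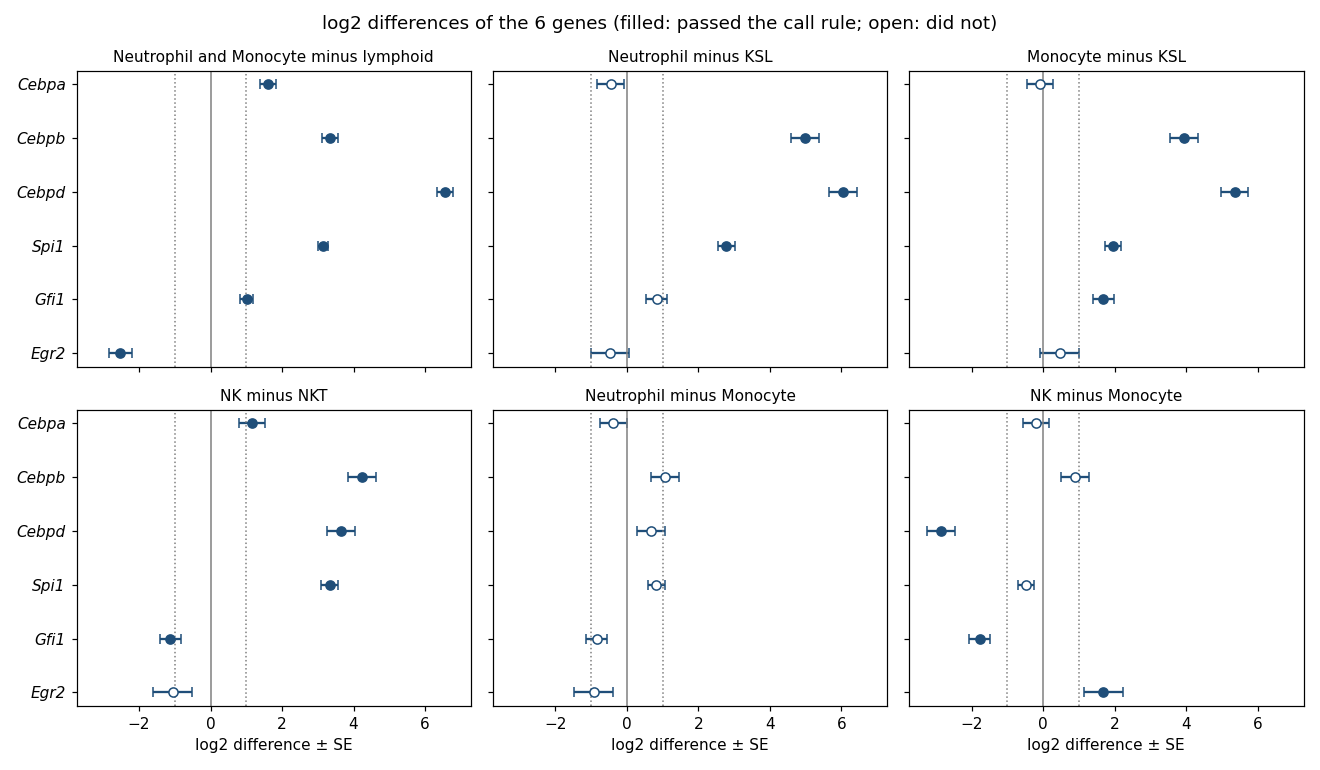
log2 differences with their limma standard errors for the 6 genes in 6 comparisons; filled points passed the call rule, open points did not, and dotted lines mark differences of -1 and 1. Cebpb, Cebpd and Spi1 are higher in both myeloid populations than in KSL and higher in NK than in NKT, and no point is filled between Neutrophil and Monocyte.

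Neutrophil was compared with Monocyte, since C/EBP proteins and Gfi1 are tied to granulocytes and PU.1 and Egr2 to monocytes and macrophages. By limma, 0 of the 6 genes were called, where 2.58% of the genes tested were called higher and 9.46% lower, and 3 had an unadjusted p under 0.05, as had 30.5% of the genes tested. Spi1 averaged 1025 ± 129 in Neutrophil and 578 ± 97.0 in Monocyte (SD, n = 2 each), a log2 difference of 0.82 ± 0.23 with adjusted p 0.017, and so missed only the size of 1. Cebpb stood at 1463 ± 224 in Neutrophil and 730.3 ± 327 in Monocyte (1.06 ± 0.39, adjusted p 0.066). Gfi1 lay the other way, at 245 ± 76.5 in Neutrophil and 444 ± 131 in Monocyte (-0.84 ± 0.30, adjusted p 0.053). Some of these moved past the rule with 1 array left out: without Monocyte replicate 2 Cebpb was called higher (1.53, adjusted p 0.038) and Gfi1 lower (-1.14, adjusted p 0.042), and without Neutrophil replicate 2 Gfi1 was called lower (-1.16, adjusted p 0.029). Cebpb was also called with the pseudocount at the 50th percentile, after array median centring, and in a fit of these 2 populations alone (adjusted p 0.024 to 0.045). Neutrophil markers summed to 52659 and 42302 in Neutrophil and to 39646 and 32449 in Monocyte. Among the myeloid target genes listed below, Elane, Mpo, Prtn3 and Ctsg averaged 133, 286, 199 and 102 in Neutrophil. In Monocyte they averaged 2675, 2534, 2034 and 395. The part of these levels in the small differences was not tested.

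Both myeloid populations were set against KSL to describe the change from the stem-enriched fraction. In Neutrophil, 3 of the 6 genes were called higher, where 14.6% of the genes tested were, and 0 lower, where 27.0% were. Cebpd rose by 6.04 ± 0.39 on the log2 scale in Neutrophil (limma adjusted p 2.33e-10), with a mean of 3605 against 49.3 in KSL. Cebpb rose by 4.996 ± 0.39, with 1463 in Neutrophil against 44.1 in KSL, and Spi1 by 2.78 ± 0.23, with 1025 against 143 (adjusted p 3.25e-09 and 7.04e-09). Gfi1 differed by 0.84 ± 0.30 (adjusted p 0.023), under the size asked for, and was called under quantile normalization (1.04) and without Neutrophil replicate 1 (1.16). Cebpa had a mean of 67.0 in Neutrophil and 90.9 in KSL (-0.45 ± 0.37, adjusted p 0.33), a difference that did not pass the test.

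In Monocyte 4 of the 6 were called higher than in KSL, where 11.6% of the genes tested were, and 0 lower, where 18.5% were. The increases were 5.36 ± 0.39 for Cebpd, 3.93 ± 0.39 for Cebpb, 1.96 ± 0.23 for Spi1 and 1.68 ± 0.30 for Gfi1, with limma adjusted p from 3.18e-09 to 0.00013. Gfi1 had 537 and 351 in Monocyte against 129 and 133 in KSL. Cebpa (-0.08 ± 0.37) and Egr2 (0.47 ± 0.54) did not pass. The comparisons of Neutrophil and of Monocyte share the KSL arrays.

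Between KSL and LinNeg, 1 of the 6 genes was called, Cebpd, lower in KSL, where 2.35% of the genes tested were lower and 2.95% higher. Its values were 60.6 and 37.9 in KSL and 143 and 147 in LinNeg (-1.47 ± 0.39, limma adjusted p 0.024). The call ended with the pseudocount at the 5th percentile (adjusted p 0.14), with the second probe set (-0.57, adjusted p 0.54), with the mean of both probe sets (adjusted p 0.061), and without KSL replicate 2, LinNeg replicate 1 or LinNeg replicate 2 (adjusted p 0.25, 0.13 and 0.097). Monocyte and macrophage markers summed to 1168 and 535 in the KSL arrays and 2215 and 2475 in LinNeg. Neutrophil markers summed to 48.4 and 44.7 in KSL and 78.2 and 1050.1 in LinNeg. The part of both lists in the difference was not tested. The other 5 genes had log2 differences from -0.35 for Cebpb to 0.46 for Spi1.

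NK and NKT share the NK1.1 marker, and 4 of the 6 genes were called higher in NK, where 6.73% of the genes tested were, and 1 lower, where 4.39% were. Cebpb stood at 1329.8 ± 379 in NK and 63.1 ± 14.9 in NKT (SD, n = 2 each), a log2 difference of 4.24 ± 0.39 (limma adjusted p 2.68e-07). Spi1 stood at 412 ± 31.5 in NK and 35.2 ± 8.61 in NKT (3.33 ± 0.23, adjusted p 7.43e-09), and Cebpd at 304 ± 13.9 in NK and 18.0 ± 1.47 in NKT (3.65 ± 0.39, adjusted p 1.34e-06). In the second Cebpd probe set the arrays had 47.1 and 29.3 in NK and 29.0 and 27.6 in NKT, and the gene was no longer called (0.33, adjusted p 0.70). Cebpa was higher by 1.16 ± 0.37 (adjusted p 0.038), a call that ended without any 1 of the 4 arrays (adjusted p 0.12 to 0.15), with either other pseudocount and with no filter. Gfi1 was lower, at 125 ± 41.8 in NK and 274 ± 28.7 in NKT (-1.12 ± 0.30, adjusted p 0.012), until NK replicate 1 (adjusted p 0.19) or NKT replicate 2 (adjusted p 0.096) was left out or arrays were centred on their medians (-0.96). Centring also moved the split of all called genes to 1092 higher and 429 lower, against 945 and 617 as deposited.

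Monocyte and macrophage markers moved with these differences, with sums of 18832 and 16590.1 in NK against 1209 and 2179 in NKT. The sums of neutrophil markers did too, with 6481 and 5269 in NK against 80.6 and 748 in NKT. Within the neutrophil list Ngp, Camp and Ltf averaged 3424, 1347 and 1012 in NK, and Mmp8 90.4. Cxcr2 averaged 2.57 in NK and 5.88 in NKT, both under the pseudocount, so its values give no direction. Of the monocyte and macrophage list, the fractalkine receptor gene Cx3cr1 averaged 2024 in NK against 37.1 in NKT, and Adgre1, which encodes F4/80, 1425 in NK against 132 in NKT. Their part in the levels of Cebpa, Cebpb, Cebpd and Spi1 in NK was not tested.

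NK was therefore also set against Monocyte. Of the 6 genes, 1 was called higher in NK, where 10.8% of the genes tested were, and 2 lower, where 8.41% were. Cebpd was lower in NK, at 304 ± 13.9 against 2267 ± 453 in Monocyte (-2.86 ± 0.39, limma adjusted p 1.73e-05), and this call ended with its second probe set (-0.83, adjusted p 0.20). Gfi1 was lower too, at 125 ± 41.8 in NK against 444 ± 131 in Monocyte (-1.78 ± 0.30, adjusted p 0.00015). Egr2 was higher, at 110.2 ± 13.1 in NK against 29.5 ± 2.59 in Monocyte (1.69 ± 0.54, adjusted p 0.025), though the call ended on leaving out any 1 of the 4 arrays (adjusted p 0.075 to 0.13). Spi1 (-0.48 ± 0.23), Cebpa (-0.20 ± 0.37) and Cebpb (0.90 ± 0.39) did not pass, and Cebpb did so without Monocyte replicate 2 (1.37, adjusted p 0.037). Monocyte and macrophage markers summed to 18832 and 16590.1 in NK against 5944 and 10870.0 in Monocyte. Neutrophil markers summed to 6481 and 5269 in NK against 39646 and 32449 in Monocyte. The part of both lists in these differences was not tested.

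B was set against CD4T and CD8T averaged, since PU.1 is used in B cells and turned off in early T cells. Spi1 was called higher in B, where 5.82% of the genes tested were, and 3 genes were called lower, where 7.01% were. Spi1 had 139 and 157 in B against 29.3 to 50.8 in the 4 T cell arrays (1.81 ± 0.20, limma adjusted p 1.07e-06). Gfi1 had 63.0 and 50.3 in B against 122 to 342 in the T cell arrays (-1.84 ± 0.26, adjusted p 1.95e-05). Cebpa was lower in B (-1.37 ± 0.32, adjusted p 0.0039), but both B arrays lay under the pseudocount, and with the pseudocount at the 50th percentile the difference was -0.67; it was also not called without B replicate 1 (adjusted p 0.067). Egr2 was lower in B by a margin that overlapped the T cell arrays (-1.39 ± 0.47, adjusted p 0.043), and 10 of its 18 alternatives ended the call, among them leaving out CD4T replicate 1 (-0.95) and the second probe set (-1.14, adjusted p 0.16).

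NKT was compared with the mean of CD4T and CD8T, as Egr2 is known from NKT development. By limma, 0 of the 6 genes were called, where 1.89% of the genes tested were called higher and 1.32% lower, and 0 had an unadjusted p under 0.05, where 16.9% of the genes tested had. Egr2 averaged 236.5 ± 15.1 in NKT, against 415 ± 327 in CD4T and 109.5 ± 71.9 in CD8T, and its log2 difference was 0.34 ± 0.47 (adjusted p 0.80). Replicates of CD4T were far apart, and a difference of the size of this standard error was not detectable.

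In Erythroblast 4 of the 6 genes were called lower than in LinNeg, where 28.9% of the genes tested were, and 0 higher, where 14.5% were. Gfi1 had the largest difference, with 2.70 and 6.07 in Erythroblast against 121 and 172 in LinNeg (-3.78 ± 0.30, limma adjusted p 2.64e-09). Both Erythroblast arrays lay under the pseudocount, so the size depended on it, at -4.76 with the 5th percentile and -2.62 with the 50th. Cebpd (-2.58 ± 0.39), Cebpa (-2.34 ± 0.37) and Spi1 (-1.59 ± 0.23) were lower as well, with adjusted p from 9.48e-06 to 2.55e-05, and Cebpd was not called with its second probe set (-0.16, adjusted p 0.79). The Gfi1 relative Gfi1b, known from red cells and platelets, had its highest mean in Erythroblast, where Gfi1 had its lowest, at 1045 ± 38.3 in Erythroblast and 635 ± 75.9 in LinNeg, a difference that did not pass (0.72 ± 0.34, adjusted p 0.087).

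Genes that work with these factors were listed by role, chosen with earlier results of these data known. Of 7 C/EBP relatives 5 had a probe set of their own, and of these 2 passed upward and 1 downward in the myeloid against the lymphoid populations, with a median log2 difference of -0.21 against -0.10 over all genes tested, of which 11.9% were called higher and 17.4% lower. Trib1, a pseudokinase that directs C/EBPα to degradation, was higher, at 130.3 in the myeloid and 16.8 in the lymphoid arrays (2.66 ± 0.31, limma adjusted p 5.27e-07), with its highest level in Neutrophil, at 161 and 239. Its relative Trib2, which acts likewise, was lower, at 11.2 in the myeloid and 271 in the lymphoid arrays (-3.25 ± 0.27, adjusted p 3.76e-09). The other gene called was the relative Trib3, higher by 1.102 ± 0.31. Its highest mean was nonetheless in CD4T, at 78.5, against 74.4 in Neutrophil, 38.3 in Monocyte and 56.3 in CD8T. B, NK and NKT were low, at 11.6, 12.1 and 5.03.

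Of 11 relatives and partners of PU.1, 0 passed upward and 3 downward in the myeloid against the lymphoid populations (median -0.28), where 11.9% of all genes tested were called higher and 17.4% lower (median -0.10). The 3 were Spib, the ETS relative of B cells, and Irf4 and Irf8, interferon regulatory factors that bind DNA with PU.1. Spib averaged 4075 in B, 72.8 in NK and 27.2 in NKT. Its means of 12.6 in CD8T and 6.71 in CD4T lay below the 21.0 of Neutrophil. Irf8 stood at 65.7 ± 3.82 in Neutrophil and 317 ± 214 in Monocyte (-1.98 ± 0.45, limma adjusted p 0.0041), while its mean was 1520.1 in NK and 2723 in B. In the T cell populations its means were 326 in NKT, 204 in CD4T and 64.5 in CD8T, not above both myeloid means except in NKT. Against KSL, 6 of the 11 were called lower in Neutrophil and 1 higher, with a median of -1.12 against -0.16 over all genes, of which 27.0% were called lower and 14.6% higher. These included Gata2, a factor of stem and mast cells that opposes PU.1, at 34.9 in Neutrophil and 617 in KSL (-3.92 ± 0.35), and Myb, a factor of proliferating progenitors, at 446 in Neutrophil and 2351 in KSL (-2.39 ± 0.21). Fli1, an ETS factor, was the one called higher, by 1.06 ± 0.26.

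Of 8 genes for a relative and partners of Gfi1, 5 were called lower in Neutrophil than in KSL and the same number in Monocyte than in KSL, and 0 higher in either, with medians of -1.57 and -1.19 against -0.16 and -0.07 over all genes, of which 27.0% were called lower in Neutrophil and 18.5% in Monocyte. Kdm1a, the histone demethylase that Gfi1 recruits, stood at 165 in Neutrophil and 199 in Monocyte against 497 in KSL (-1.56 ± 0.18 and -1.30 ± 0.18), and the deacetylase gene Hdac2 at 115 in Neutrophil and 347 in Monocyte against 869 in KSL (-2.86 ± 0.21 and -1.31 ± 0.21). Gfi1 itself was not called lower in either population.

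Of 5 Egr relatives and Nab genes, 2 passed upward and 2 downward in the myeloid against the lymphoid populations (median -0.13), beside the same shares of all genes. Egr3, which shares roles with Egr2 in T cells, was lower, at 19.0 in the myeloid and 311 in the lymphoid arrays (-3.31 ± 0.44, limma adjusted p 2.31e-06), and so was Nab2, at 8.70 in the myeloid and 72.6 in the lymphoid arrays (-2.52 ± 0.30). Egr3 was also higher in B than in the T cells, by 2.11 ± 0.64 (adjusted p 0.025), where Egr2 was called lower. Egr1, the best known immediate-early member, was higher in the myeloid arrays (1.25 ± 0.52, adjusted p 0.0496), with 888 and 1712 in Neutrophil and 476 and 1594 in Monocyte. Its B arrays, at 1022 and 1064, lay within that range. Of 7 genes linked to Egr2 in T and NKT cells, 4 were called lower in the myeloid populations and 0 higher (median -1.87), where 17.4% of all genes tested were called lower and 11.9% higher (median -0.10). They were Cblb, a ubiquitin ligase of T cell anergy, Dgka, a diacylglycerol kinase, Fasl, the Fas ligand, and Nfatc2.

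Among other monocyte factors 4 of 5 genes had a probe set of their own, and in Neutrophil against Monocyte 2 were called lower and 0 higher, where 9.46% of all genes tested were called lower and 2.58% higher. Klf4 stood at 54.5 in Neutrophil and 420.4 in Monocyte (-2.51 ± 0.65, limma adjusted p 0.010), where the arrays were far apart, at 173 and 668. It was higher still in NK, at 1961 and 2349.

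Known myeloid target genes of C/EBP proteins and PU.1 were listed as well, 22 of them, and 21 had a probe set of their own. They were picked as myeloid genes, so their calls follow in part from that choice and do not test the factors. Ngp, Camp, Ltf and Csf1r are also in the marker lists used above, so the 2 kinds of list are not independent. All 21 were called higher in the myeloid populations than in the average of the lymphoid ones, with a median log2 difference of 4.98, against -0.10 over all genes tested, of which 11.9% were called higher. Il6ra was among the 21, yet its means of 596 in NK and 511 in CD4T lay above those of 357 in Neutrophil and 367 in Monocyte. Csf3r, the G-CSF receptor and a target of C/EBPα, stood at 3117 in Neutrophil and 1197 in Monocyte, 543 in NK and 320.2 in KSL. In Neutrophil against KSL 17 were called higher and 3 lower (14.6% and 27.0% of all genes), and in Monocyte against KSL 18 higher and 0 lower (11.6% and 18.5%). Mpo, an enzyme of primary granules that C/EBPα and PU.1 turn on, had 69.5 and 502 in Neutrophil. It had 2180 and 2887 in Monocyte, and 4960 and 2365 in KSL. In KSL against LinNeg 0 were called higher and 4 lower (2.95% and 2.35% of all genes), with a median of -1.43 against 0.01 over all genes. In NK against NKT 17 of the 21 were called higher and 0 lower (median 4.26, all genes -0.13; 6.73% and 4.39% of all genes called). In NK against Monocyte 0 were higher and 10 lower (median -1.70, all genes 0.03; 10.8% and 8.41% called). Csf1r, the macrophage growth factor receptor and a target of PU.1, was not among those lower, with 7004 and 5725 in NK against 3737 and 5948 in Monocyte.

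Pairs of the 6 genes were described by Pearson r of their population means over the 10 populations, which share arrays and scaling. Cebpd and Spi1 had r = 0.888, Cebpb and Cebpd 0.880 and Cebpb and Spi1 0.863, and without NK these were 0.888, 0.934 and 0.862. Cebpa had r of 0.588 with Cebpb, 0.717 with Cebpd and 0.553 with Spi1. Egr2 had negative r with Cebpa, Cebpb, Cebpd and Spi1, from -0.184 with Cebpb to -0.556 with Cebpd, and 0.249 with Gfi1.

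The genes with the most similar population means were found among 7594 genes tested that ranged over at least 2 on the log2 scale, 5 for each of the 6. For Spi1 they were Nfam1, Lpcat2, Fes, Csf2rb and Csf2ra, with r from 0.970 to 0.988; the last 2 encode chains of the GM-CSF receptor, and Csf2rb had 2375 and 2296 in Neutrophil, 836 and 775 in NK and 330.1 and 249.9 in B. For Cebpb they were Pla2g7, a secreted phospholipase, the chemokine Ccl6, Ifi204, Sirpb1a and the metal transporter Slc11a1 (r 0.983 to 0.991), and Pla2g7 had 1053 and 782 in Neutrophil, 357 and 383 in Monocyte and 526 and 684 in NK, and under 10 in each array of the other populations. For Cebpd they were Mtus1, Cpd, Dram1, Trem3 and Znhit1 (r 0.984 to 0.991). Mtus1 had 909 and 894 in Neutrophil, 471 and 416 in Monocyte and 123 and 125 in NK.

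Similarity was lower for the other 3 genes. For Cebpa they were Mlkl, an effector of necroptosis, Dock1, the growth factor gene Hgf, Tmem205 and Mfsd13a (r 0.911 to 0.933), of which Hgf averaged 208 in KSL, 114 in NK, 107 in Neutrophil and 1.52 in B. For Gfi1 they were Slc36a1, Rab27a, a GTPase of granule release, Kctd10, Pak2 and Crot (r 0.937 to 0.972), and Rab27a averaged 780.4 in Neutrophil and 1.86 in Erythroblast. For Egr2 they were Il2ra, the interleukin 2 receptor chain CD25, Ly9, A930024E05Rik, Aak1 and Prdm1, which encodes Blimp-1 (r 0.915 to 0.949). Il2ra had 49.1 and 60.3 in CD4T, 32.8 and 30.5 in NKT and at most 21.0 in any other array.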

How the data were processed

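The authors deposited 1 linear intensity per probe set and array, and these intensities share one scale, since the trimmed mean is the same in all 20 arrays; the software that summarised the probes is not given in the sources used here. Of 45101 probe sets, 34945 carry 1 gene symbol, 932 several, 9160 none and 64 are controls. Values were taken as log2(intensity + 6.75), the pseudocount being the 25th percentile of all values, and fold changes on this scale understate those of dim genes. A gene was tested if its level in at least 1 population, averaged over both arrays, exceeded the 50th percentile of all values, which kept 14044 of 18193. The test was limma 3.58.1 in R 4.3.3 (lmFit, eBayes with a mean-variance trend), with 1 coefficient per population over all 20 arrays and Benjamini-Hochberg adjustment over the genes tested. The 10 comparisons, and alternatives for the pseudocount, scaling, filter, probe set, samples fitted and single arrays left out, are covered in the closing section. The number of arrays, 2 per population, limits the precision.

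The genes named are the 6 factors, the 5 genes most similar to each over the population means, the members of 7 lists by role (65 genes, 61 with a probe set of their own) and markers of cell types. The 6 genes and these lists were chosen with earlier results of these data known. Within the lists, examples were picked after their values were seen.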

Additional observations from a re-analysis of the deposited data

How the results depend on the processing

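No result changed direction where it was called. Over the single results of the 6 genes, 702 kept their side of the threshold, 19 lost a call and 5 gained one under other settings, and 295 kept it, 24 lost a call and 5 gained one on leaving out 1 array. Of the 6 genes, the number called lower in KSL than in LinNeg was 0 with the 5th-percentile pseudocount, with the mean over all probe sets and with the other probe set of Cebpb, Cebpd and Egr2, a setting added after seeing the data. The number called higher in Neutrophil than in Monocyte was 1 (Cebpb) with the 50th-percentile pseudocount, array median centring or only the populations compared. The number called lower in NK than in NKT was 0 with centring and 2 with only the populations compared, and that called lower in NK than in Monocyte was 1 with the other probe sets. On leaving out 1 array, the number of the 6 called ranged from 0 to 1 for lower in KSL than LinNeg, lower in NK than NKT, higher in NK than Monocyte, and higher or lower in Neutrophil than Monocyte, and from 1 to 3 for lower in B than in T cells. Over all genes, calls between KSL and LinNeg ranged from 293 (without KSL replicate 2; 357 without LinNeg replicate 1) to 660, against 745, and those between NKT and T cells from 220 (without NKT replicate 2) to 438, against 452. The causes were not tested.

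Array median centring moved the median of all genes on the log2 scale by 0.14 for NK against NKT, 0.11 for the myeloid against lymphoid populations and 0.10 for B against T cells, and quantile normalization by 0.14 for Erythroblast against LinNeg, 0.12 for Neutrophil against KSL and 0.10 for myeloid against lymphoid. The correlation of replicate differences over 45 population pairs had a median of 0.0064, exceeded 0.1 in 1 and reached at most 0.206. Samples paired by replicate number could still share little signal, so these values cannot tell whether the numbers pair the samples. With the replicate number as a block, 4123 genes were called in the myeloid against lymphoid comparison, and no call of the 6 genes changed. Levels under the pseudocount, such as Cebpa in B and Gfi1 in Erythroblast, have no firm size of difference.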
